A study of Mus musculus with 6 samples.

Results

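A set of 9 complement genes was followed across the 6 libraries of this study of mouse dermal fibroblasts: C1ra, C1s1, C4b, C2, C3, Cfp, Serping1, Cd55 and Cd59a. They were taken by gene symbol, and all 9 were found among the 13706 genes of the expression table. YTcKO+H151 cells (2 libraries) carried R26-CAG-CreER together with the conditional alleles Yap1 fl/fl and Wwtr1 fl/fl, and received 1 µM 4OH-Tamoxifen with 1 µM H-151, an inhibitor of the adaptor protein STING. YTcKO cells (2 libraries) had the same genotype and received 1 µM 4OH-Tamoxifen alone. Control cells (2 libraries) carried Yap1 fl/fl and Wwtr1 fl/fl with no Cre in their label, and received 1 µM 4OH-Tamoxifen too. Treatment lasted 72 hr in all groups, in primary culture with serum, and no ages or sexes of the donor mice are given in the sources used here. The tamoxifen-dependent Cre is driven by the broadly active CAG promoter at the ROSA26 locus, so it is not restricted to fibroblasts among the cultured cells. The YTcKO and control groups differ in Cre as well as in the floxed genes, and these cannot be told apart. Messenger RNA was read by QuantSeq, a method that tags the 3' ends of transcripts.

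Complement is a cascade of plasma proteins that marks microbes and damaged cells for removal. In the classical pathway, the protease C1s, activated by the protease C1r, cleaves C4 and C2, whose fragments join into an enzyme that cleaves C3. The alternative pathway amplifies C3 cleavage and is stabilised by properdin, the product of Cfp. C1 inhibitor, CD55 and CD59 hold the cascade in check at its start, at the C3-cleaving enzymes and at the membrane attack complex. The liver makes most circulating complement proteins, and stromal cells, macrophages and other cell types make some of them locally.

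Between 12444986 and 15308100 reads per library fell in listed genes. Levels are in scaled CPM, reads divided by an effective library size, where 1 read equals 0.0625 to 0.0871 scaled CPM. Spearman correlations across genes between YTcKO+H151 and YTcKO libraries were 0.940 to 0.942, below those of either group's own pair (0.994 and 0.996). Wwtr1, which encodes TAZ, averaged 3.54 ± 0.658 scaled CPM in YTcKO+H151 and 4.91 ± 0.167 in YTcKO, against 216 ± 3.69 in control (SD, n = 2 each). Yap1 averaged 43.9 ± 2.08 in YTcKO+H151 and 67.4 ± 1.32 in YTcKO, against 125 ± 4.14 in control. Both levels were lower in the Cre-bearing groups, as the group labels say. A 3' tag can lie outside a deleted exon, and the floxed exons are not named in the labels, so these levels do not measure the deletion itself. All 10 fibroblast markers were present, with a summed level of 25797 to 27580 scaled CPM in YTcKO+H151, 38398 to 40190 in YTcKO and 34224 to 34746 in control. Markers of macrophages and adipocytes were present as well, and their values stand beside the results they move with. Whether both libraries of a group came from different cultures or mice is not stated in the labels, and the p-values therefore rest on a spread that may be technical.

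The promoters of 4 members with different patterns of levels are shown as the 250 bases before the start site. They come from the mouse reference (RefSeq, build GRCm38.p6), 5′ to 3′ on the gene's strand. C2, C4b and Serping1, called higher in YTcKO than in control and lower with H-151 than in YTcKO, had no window in the reference. C1s1 was higher in both Cre-bearing groups than in control, C3 was lower with H-151, Cfp was higher with H-151, and Cd55 was lower in both Cre-bearing groups. Capitals mark letters that match a binding motif, and a match on the other strand appears as its reverse complement (GGAATG as CATTCC).
C1s1, chr6:124542360-124542609, minus strand: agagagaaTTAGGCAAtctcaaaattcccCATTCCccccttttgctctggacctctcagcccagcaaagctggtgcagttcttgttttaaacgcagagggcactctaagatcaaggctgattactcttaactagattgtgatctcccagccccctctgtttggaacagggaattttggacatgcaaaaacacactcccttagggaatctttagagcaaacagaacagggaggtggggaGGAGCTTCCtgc
C3, chr17:57228137-57228386, minus strand: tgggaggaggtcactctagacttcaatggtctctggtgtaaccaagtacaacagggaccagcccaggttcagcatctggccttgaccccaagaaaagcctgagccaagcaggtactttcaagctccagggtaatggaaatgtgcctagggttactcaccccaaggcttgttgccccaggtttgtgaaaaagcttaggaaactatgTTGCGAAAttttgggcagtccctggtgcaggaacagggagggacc
Cfp, chrX:20931556-20931805, minus strand: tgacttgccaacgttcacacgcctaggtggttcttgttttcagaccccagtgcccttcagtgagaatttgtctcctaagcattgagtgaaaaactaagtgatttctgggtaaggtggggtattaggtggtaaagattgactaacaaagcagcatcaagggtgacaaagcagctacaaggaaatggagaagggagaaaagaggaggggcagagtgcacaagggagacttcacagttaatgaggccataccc
Cd55, chr1:130462745-130462994, minus strand: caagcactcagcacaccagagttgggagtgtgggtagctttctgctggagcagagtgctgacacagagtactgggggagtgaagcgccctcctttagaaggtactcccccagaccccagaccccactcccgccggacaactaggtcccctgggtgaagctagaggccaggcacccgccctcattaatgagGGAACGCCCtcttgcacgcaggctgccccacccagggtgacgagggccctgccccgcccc

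A set of 5 motifs was searched on both strands of windows of 300 bases, 250 before and 50 after each start, which the reference gave for 6 of the 9 members (7 windows, 2 of them overlapping windows of C1s1). The interferon-stimulated response element, searched as TTTCNNTTT, matched in Cd59a only among these members and in 10.6% of the 32851 windows of all genes. The gamma-activated site, a STAT motif searched as TTCNNNGAA, matched in C1ra, at bases 33 to 41 after the start, and in 8.30% of all windows. The NF-kappaB motif, searched as GGNNNTTCC, matched in C1s1 (bases -12 to -4) and Cd55 (-60 to -52), and in 18.5% of all windows. GGAATG, the motif of TEAD, through which YAP and TAZ reach DNA, matched in C1s1 (-221 to -216) and at 3 places in C1ra, and in 14.7% of all windows. At bases 33 to 36 of C1ra a TEAD match and the gamma-activated site share letters. The C/EBP motif, searched as TTGCNNAA, matched in C1s1, C1ra and C3 (-45 to -38), and in 10.8% of all windows. The Cfp window held none of these letters. C2, C4b and Serping1 are named only.

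C1ra and C1s1 encode C1r and C1s, the proteases that open the classical pathway. They lie next to each other on chromosome 6 in opposite orientation (C1ra at 124512405 to 124523443, C1s1 at 124530345 to 124542359; GRCm38, GENCODE). C1ra stood at 78.4 and 69.9 scaled CPM in YTcKO+H151 and 81.5 and 81.2 in YTcKO, against 64.4 and 51.8 in control. C1s1 stood at 136 and 113 in YTcKO+H151 and 123 and 135 in YTcKO, against 101 and 103 in control. For both genes, all 4 Cre-bearing libraries lay above both control libraries, and the H-151 libraries of C1s1 enclosed the YTcKO ones.

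In YTcKO against control, C1ra rose 1.40-fold, a log2 change of 0.49 ± 0.10 (SE; adjusted p = 0.000937, limma on log2(scaled CPM + 1)). C1s1 rose 1.26-fold (0.33 ± 0.09, adjusted p = 0.00668). The C1s1 call was lost without YTcKO replicate 2 (adjusted p = 0.123), without a trend in the prior variance (0.0833), under total-count scaling (0.125) and under quantile normalization (0.136). Neither gene passed in YTcKO+H151 against YTcKO: the log2 difference was -0.13 for C1ra (95% interval -0.34 to 0.07) and -0.05 for C1s1 (-0.23 to 0.13). C1ra was 0.35 ± 0.10 higher in YTcKO+H151 than in control (adjusted p = 0.0144) and C1s1 0.28 ± 0.09 higher (adjusted p = 0.0262). The C1ra call was lost without control replicate 2 (0.20, adjusted p = 0.244), without YTcKO+H151 replicate 1 (adjusted p = 0.0738) and without the trend (0.120). The C1s1 call was lost under 8 of 18 alternatives, among them every removal of 1 library except YTcKO+H151 replicate 2 (for control replicates, adjusted p = 0.128 and 0.0990; for YTcKO replicates, 0.0570 and 0.0576), and the change was 0.15 without YTcKO+H151 replicate 1 (0.242). The antisense gene model Gm16567 overlaps C1s1, and the strand setting of the counting is not given in the sources used here, so reads of the 2 cannot be told apart. C1rb and C1s2 are close paralogues of this gene pair, so the split of shared reads is uncertain.

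C4b and C2 supply the enzyme that cleaves C3 in the classical pathway, C4b as its anchor on the surface and C2 as its protease. Both lie in the class III part of the mouse MHC on chromosome 17 (C4b at 34728380 to 34743882, C2 at 34862604 to 34898265). C2 stood at 14.4 and 13.6 scaled CPM in YTcKO+H151 and 22.9 and 21.8 in YTcKO, against 8.55 and 5.05 in control. The 3 groups of C2 did not overlap, and H-151 libraries lay between the others. C4b stood at 67.0 and 64.2 in YTcKO+H151 and 84.6 and 88.5 in YTcKO, against 79.1 and 68.9 in control. Its YTcKO libraries were the 2 highest and its YTcKO+H151 libraries the 2 lowest.

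C2 rose 3.29-fold in YTcKO against control (log2 change 1.62 ± 0.18, adjusted p = 1.93e-06), which was the largest change of the 9 genes in that comparison. The call held under all 18 alternatives. With H-151, C2 was lower than in YTcKO (-0.64 ± 0.18, adjusted p = 0.00864) and still above control (0.98 ± 0.18, adjusted p = 0.000689; 0.65 without control replicate 2, adjusted p = 0.0132). The fall was not called without YTcKO replicate 1 (adjusted p = 0.0901), without YTcKO replicate 2 (0.0621) or without the trend (0.0553). C2 rested on 218 to 263 reads in the Cre-bearing libraries and on 120 and 70 in the control libraries. The gene model Gm20547 covers the 3' end of C2 on the same strand, and Zbtb12 overlaps C2 on the other, so C2 values are uncertain to that extent.

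C4b was 0.23 ± 0.08 higher in YTcKO than in control on the log2 scale (adjusted p = 0.0460). This call, close to the threshold, was lost under 9 of 18 alternatives, with 0.13 and adjusted p = 0.394 without control replicate 2, adjusted p = 0.119 and 0.241 without YTcKO replicates 1 and 2, 0.0517 in edgeR and 0.112 in DESeq2. The change was 0.06 under total-count scaling (adjusted p = 0.562) and 0.07 under quantile normalization (0.534). With H-151, C4b was lower than in YTcKO (-0.39 ± 0.08, adjusted p = 0.00110), a call that held under all 18 alternatives, at -0.22 under total-count scaling and -0.25 under quantile normalization. Against control it did not pass (-0.17 ± 0.08, adjusted p = 0.165). C4a is a close paralogue of C4b, so the split of shared reads is uncertain.

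C3, on chromosome 17 at 57203970 to 57228136, is the protein on which all complement pathways meet. It stood at 45.0 and 29.8 scaled CPM in YTcKO+H151 and 64.5 and 61.8 in YTcKO, against 64.0 and 54.4 in control. YTcKO and control libraries overlapped, and both YTcKO+H151 libraries lay below the other 4. In YTcKO against control the log2 difference was 0.10 ± 0.14 (95% interval -0.20 to 0.39, adjusted p = 0.636), with the sign reversed under total-count scaling, under quantile normalization and without control replicate 2. With H-151, C3 fell by 0.77 against YTcKO (SE 0.14, adjusted p = 0.000292; -0.48 without YTcKO+H151 replicate 2, adjusted p = 0.000683). It was also lower than in control (-0.67 ± 0.14, adjusted p = 0.00193; -0.38 without YTcKO+H151 replicate 2, adjusted p = 0.00864). The call against control was lost in DESeq2 (adjusted p = 0.0536) and without the trend (0.0693).

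Profiles near that of C3 were ranked among genes tested except unnamed gene models, by Euclidean distance between mean-centred log2 values over the 6 libraries. The nearest were those of Rps27a, Egr1 and Slc7a2. The distances were 0.233, 0.315 and 0.317 log2 units. Rps27a encodes a ubiquitin-ribosomal fusion protein and averaged 124 scaled CPM in YTcKO+H151 and 201 in YTcKO, against 180 in control. Processed copies of Rps27a can share its reads. Egr1 encodes an immediate early transcription factor and Slc7a2 a transporter of cationic amino acids. Among the 9 genes the nearest to C3 was Serping1, at 0.505, and the farthest was Cfp, at 2.37.

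Cfp, on the X chromosome at 20925454 to 20931555, encodes properdin, which stabilises the alternative pathway's C3-cleaving enzyme and is made mainly by leukocytes. It stood at 23.1 and 16.7 scaled CPM in YTcKO+H151 and 6.10 and 8.09 in YTcKO, against 7.69 and 7.78 in control. YTcKO enclosed control, and both YTcKO+H151 libraries lay above all others. Cfp rose 2.80-fold in YTcKO+H151 against YTcKO (log2 change 1.36 ± 0.17, adjusted p = 9.45e-06) and 2.57-fold against control (1.24 ± 0.17, adjusted p = 7.39e-05). Both calls held under all 18 alternatives. In YTcKO against control it did not pass (-0.12, 95% interval -0.49 to 0.25, adjusted p = 0.637), and the sign reversed without YTcKO replicate 1.

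Macrophage markers were raised with Cfp in YTcKO+H151. Of 13 macrophage markers in the table, 13 rose and 0 fell in YTcKO+H151 against YTcKO, with a median log2 change of 1.15, against 0.02 for all genes tested. Against control, 12 rose with H-151 and 0 fell, and in YTcKO against control 3 rose and 2 fell. Their summed level was 3145 to 3894 scaled CPM in YTcKO+H151 and 1509 to 1525 in YTcKO, against 1211 to 1439 in control. Lyz2, at 2740 and 2199 in the YTcKO+H151 libraries, carried most of this sum. No macrophage marker in the table was at 0 in any library, and the lowest count was 7 reads. Csf1r, the receptor that macrophages need to survive, averaged 74.7 ± 2.54 in YTcKO+H151 and 25.1 ± 0.583 in YTcKO, against 34.8 ± 1.53 in control. Csf1r was lower in YTcKO than in control (-0.46 ± 0.09, adjusted p = 0.000783), where Cfp did not pass. Relative to the control mean, Cfp was at 2.98 and 2.16 in the YTcKO+H151 libraries, and the macrophage sum without its C1q genes at 2.93 and 2.39 in those libraries. Without Lyz2 as well, that sum was at 2.736 and 2.345 in the same libraries. Adipocyte markers were raised there too, with their sum without Cfd at 4.229 and 2.565, so the rise was not particular to macrophage markers. S100a8, the neutrophil marker in the table, was at 2.56 to 6.01 in YTcKO+H151 and 1.39 to 1.53 in YTcKO, against 1.42 to 2.02 in control. No lymphocyte marker was in the table. The part of these cells in the change of Cfp was not tested. In bulk RNA, more cells of a type and more RNA per cell cannot be told apart.

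**Figure D1:**
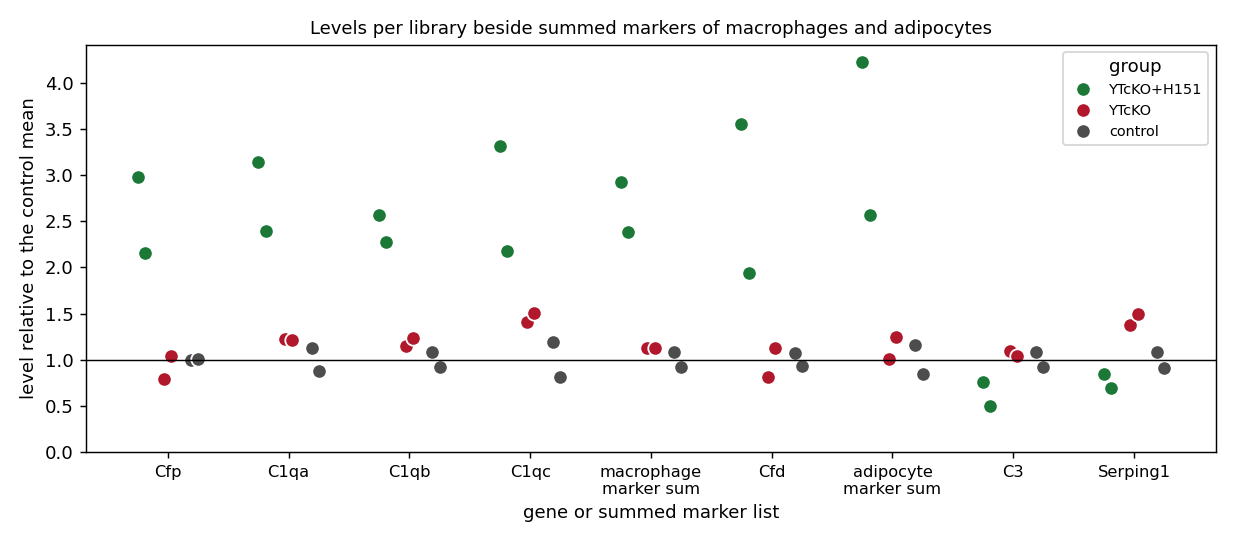
Level in each library divided by the control mean for Cfp, C1qa, C1qb, C1qc, Cfd, C3, Serping1 and summed markers of 2 cell types, by group. Dots are libraries, and the line is the control mean of 1. Cfp, at 2.98 and 2.16 in YTcKO+H151, stands above 1 with C1qa, C1qb, C1qc and the macrophage sum. Cfd (3.56 and 1.94) and the adipocyte sum (4.229 and 2.565) stand above 1 there too, while C3 (0.760 and 0.504) and Serping1 (0.841 and 0.698) stand below 1.

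Serping1, on chromosome 2 at 84765387 to 84775444, encodes C1 inhibitor, the plasma serpin that inactivates C1r and C1s. It stood at 289 and 240 scaled CPM in YTcKO+H151 and 473 and 513 in YTcKO, against 373 and 314 in control. The 3 groups did not overlap, with YTcKO highest and YTcKO+H151 lowest. Serping1 rose 1.43-fold in YTcKO against control (log2 change 0.52 ± 0.09, adjusted p = 0.000306) and fell by 0.90 in YTcKO+H151 against YTcKO (SE 0.09, adjusted p = 6.76e-07). Both calls held under all 18 alternatives. It also lay below control with H-151 (-0.38 ± 0.09, adjusted p = 0.00653; -0.24 without YTcKO+H151 replicate 2, adjusted p = 0.0429). That call was lost without control replicate 1 (-0.25, adjusted p = 0.122) and without the trend (0.118).

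Other marker sums had the same order of groups as Serping1. The 5 melanocyte and Schwann cell markers in the table summed to 19.6 to 22.5 scaled CPM in YTcKO+H151 and 115 to 132 in YTcKO, against 36.2 to 43.0 in control, with YTcKO highest and YTcKO+H151 lowest. The genes of this list did not all move together: 1 rose and 2 fell in YTcKO+H151 against YTcKO, while 3 rose and 1 fell in YTcKO against control. The fibroblast sum had the same order and was at 0.800 and 0.748 of the control mean in YTcKO+H151 and 1.11 and 1.17 in YTcKO. Abundant genes such as Col1a1 and Col1a2 carried it, and its 10 genes went both ways. With H-151, 5 rose and 5 fell against YTcKO, among them Pdgfra (142 ± 2.82 in YTcKO+H151, 68.1 ± 3.20 in YTcKO; higher) and Col1a1 (5011 ± 235 in YTcKO+H151, 9476 ± 770 in YTcKO; lower). In YTcKO against control, 3 rose and 2 fell. Serping1 was at 0.841 and 0.698 of its control mean in YTcKO+H151 and 1.38 and 1.49 in YTcKO. The part of either cell type in the change of Serping1 was not tested.

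Cd55 and Cd59a encode membrane-bound inhibitors that protect a cell from complement on its own surface. CD55 speeds the decay of the C3-cleaving enzymes, and CD59 blocks the last step of the membrane attack complex. Cd55, on chromosome 1 at 130439027 to 130462744, stood at 3.92 and 3.75 scaled CPM in YTcKO+H151 and 4.62 and 3.83 in YTcKO, against 5.91 and 8.22 in control. All 4 Cre-bearing libraries lay below both control libraries, on 45 to 60 reads against 83 and 114. Cd55 fell by 0.62 in YTcKO against control (SE 0.19, adjusted p = 0.0210) and by 0.72 in YTcKO+H151 against control (SE 0.19, adjusted p = 0.0115). Between YTcKO+H151 and YTcKO the log2 difference was -0.11 (95% interval -0.51 to 0.30, adjusted p = 0.691). Without control replicate 2 the change against control was -0.41 in YTcKO (adjusted p = 0.237) and -0.51 in YTcKO+H151 (0.172). The YTcKO call was also lost without YTcKO replicate 2 (adjusted p = 0.156) and in DESeq2 (0.0838). An antisense model, Gm16083, overlaps the start of Cd55, and Cd55b is its paralogue.

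Cd59a, on chromosome 2 at 104095801 to 104115354, stood at 67.9 and 62.2 scaled CPM in YTcKO+H151 and 66.3 and 63.8 in YTcKO, against 57.0 and 55.2 in control. All 4 Cre-bearing libraries lay above both control libraries, and the pairs of the Cre-bearing groups overlapped. The log2 difference from control was 0.21 ± 0.08 in YTcKO (adjusted p = 0.0577) and 0.21 ± 0.08 in YTcKO+H151 (adjusted p = 0.0755), and neither passed. The difference in YTcKO passed when only those 2 groups were fitted (adjusted p = 0.0365) and without YTcKO+H151 replicate 1 (0.0353) or 2 (0.0343). The difference in YTcKO+H151 passed without YTcKO+H151 replicate 2 (0.27, adjusted p = 0.0394). Between YTcKO+H151 and YTcKO the difference was -0.00057 (95% interval -0.17 to 0.17). Cd59b, its paralogue, averaged 1.69 scaled CPM in YTcKO+H151, 1.38 in YTcKO and 1.22 in control.

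**Figure D2:**
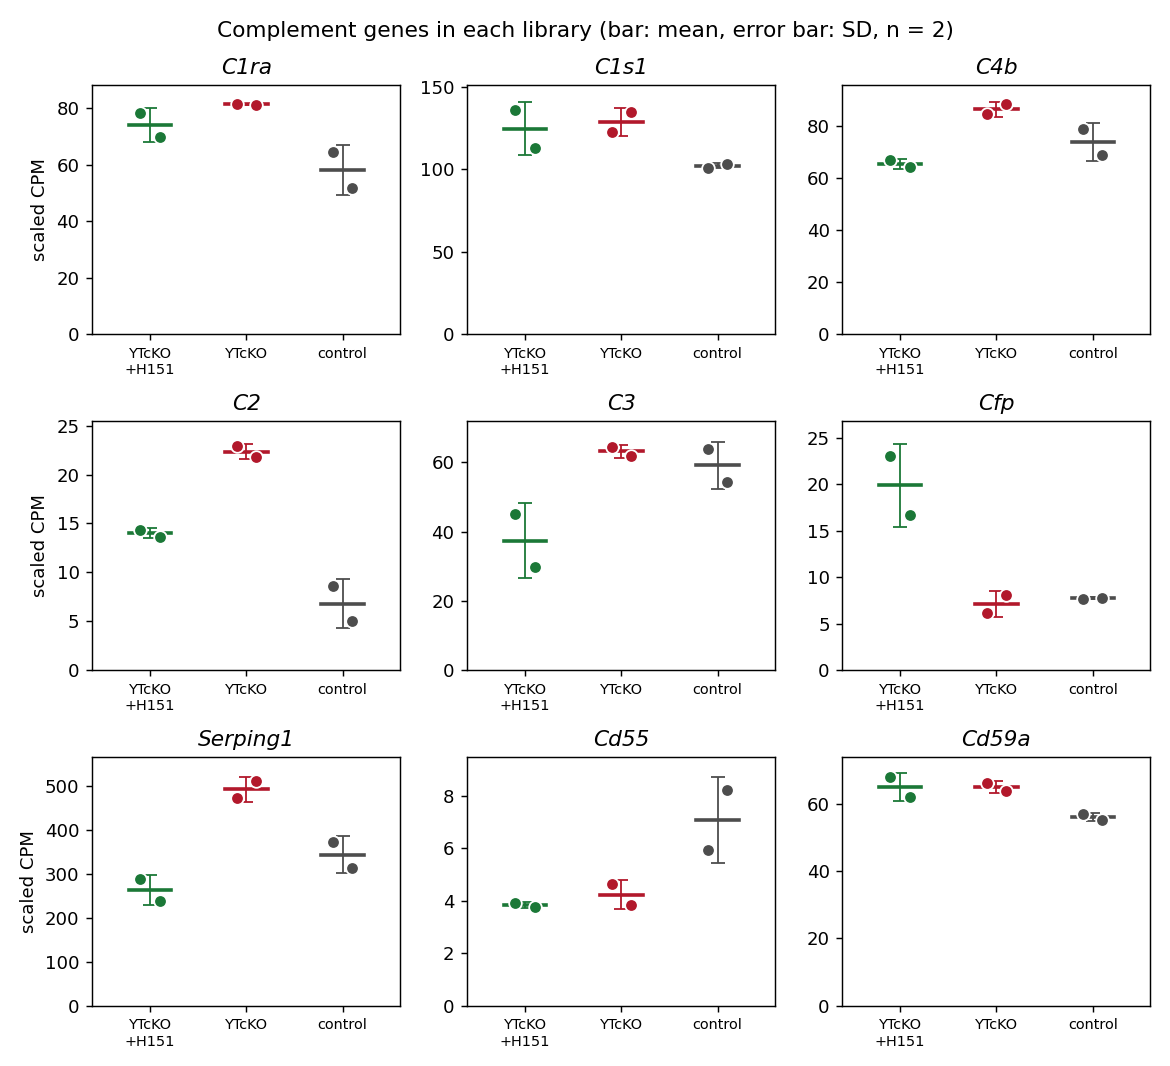
Scaled CPM of each of the 9 complement genes by group, with each library as a dot, the group mean as a bar and the SD as an error bar (n = 2 libraries a group). C1ra, C2, C4b and Serping1 are highest in YTcKO and their 3 groups do not overlap, whereas Cfp is highest in YTcKO+H151 and Cd55 in control. How many of all genes separate in this way was not counted.

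Over the 9 genes, the comparison of YTcKO with control bears on the loss of YAP and TAZ. It had 5 genes that rose (C1ra, C1s1, C4b, C2 and Serping1) and 1 that fell (Cd55). Of all genes tested 32.4% were called, 18.2% higher and 14.2% lower. The median log2 change was 0.23, against -0.01 for all genes. Among all genes called, the share called higher was 56.2% as deposited, 29.9% under total-count scaling and 39.1% under quantile normalization. Total-count scaling moved the median of all genes to -0.16, and with it 3 of the 9 genes were called higher (C1ra, C2 and Serping1), as under quantile normalization. Without YTcKO replicate 2, 3 were called higher and 0 lower, and without control replicate 2, 0 were called lower. The other 3 genes, C3, Cfp and Cd59a, did not pass.

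The comparison of YTcKO+H151 with YTcKO bears on the STING inhibitor in the Cre-bearing cells. Yap1 (-0.61 ± 0.08, adjusted p = 8.35e-06) and Wwtr1 (-0.39 ± 0.13, adjusted p = 0.0258) were also lower in YTcKO+H151 than in YTcKO. The Wwtr1 call was lost in DESeq2 (adjusted p = 0.0756) and under total-count scaling (0.133), among other settings. The part of this difference in the results below was not tested. Of the 9 genes, 4 fell (C2, C3, C4b and Serping1) and Cfp rose. Of all genes tested 40.8% were called, 21.4% lower and 19.4% higher. The median log2 change was -0.13, against 0.02 for all genes. The share of calls that were higher was 47.5% as deposited, 71.2% under total-count scaling and 61.9% under quantile normalization. The same 5 genes were called in the same direction under both scalings, and total-count scaling moved the median of all genes to 0.18. The YTcKO libraries enter both this comparison and the one with control, so the opposite signs of C2, C4b and Serping1 in the 2 comparisons share those libraries and are not independent.

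The comparison of YTcKO+H151 with control shares each of its groups with one of the other comparisons. C1ra, C1s1, C2 and Cfp were higher and C3, Serping1 and Cd55 lower. Of all genes tested 22.9% were called, 11.5% higher and 11.4% lower. The median log2 change was 0.21 over the 9 genes, against 0.00 for all genes. Without control replicate 2 or without YTcKO+H151 replicate 1, 2 genes were called higher. C2 was above control with and without the inhibitor, while C3 and Serping1 lay below control with it.

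**Figure D3:**
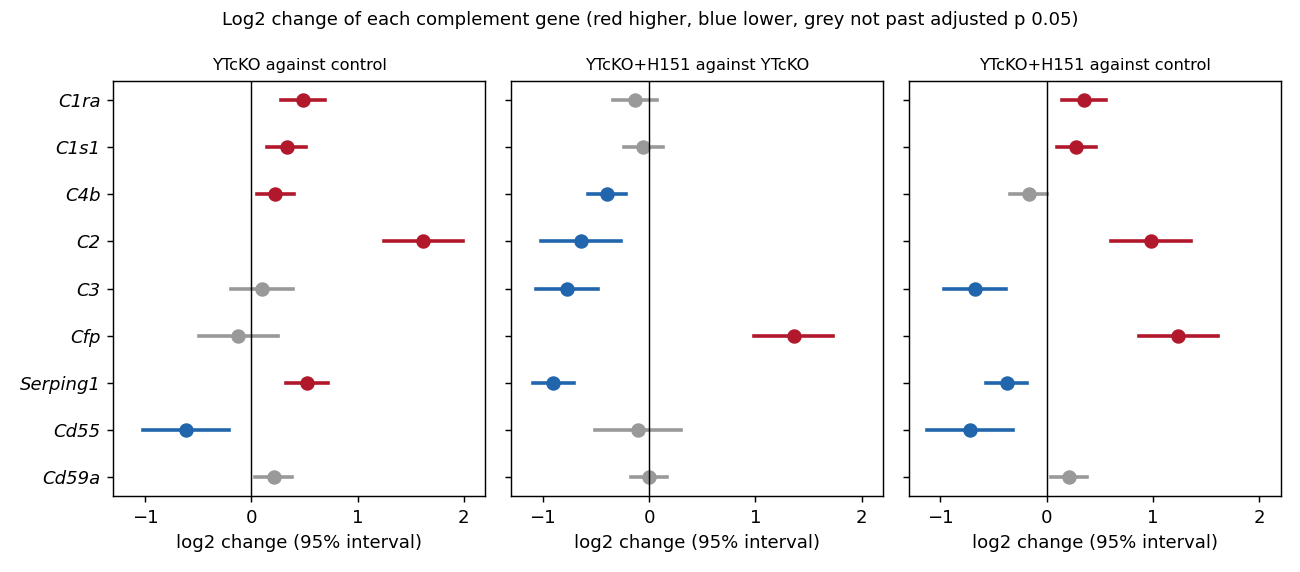
Log2 change of each of the 9 genes with its 95% interval in the 3 comparisons (red, higher; blue, lower; grey, adjusted p not under 0.05). C2 has the largest change in YTcKO against control (1.62), and Cfp the largest with H-151 (1.36 against YTcKO and 1.24 against control).

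Of 52 other complement genes in a list of components, regulators and receptors, 22 were in the table and all 22 were tested. In YTcKO against control 4 rose and 3 fell, with a median log2 change of 0.04, against 18.2% called higher, 14.2% called lower and a median of -0.01 over all genes tested. The share of these genes called was thus near that of all genes, 32.4%. Clu, which encodes clusterin, a soluble inhibitor of the membrane attack complex, averaged 29.4 ± 0.764 scaled CPM in YTcKO and 13.5 ± 1.30 in control (1.08 ± 0.12, adjusted p = 2.41e-06). C1qc, which encodes a chain of C1q, rose by 0.56 ± 0.16 (adjusted p = 0.0134), a call lost without control replicate 2 (0.29, adjusted p = 0.237), without YTcKO replicates 1 (0.0937) or 2 (0.156), in DESeq2 (0.240), without the trend (0.143), and under total-count scaling (0.0612) and quantile normalization (0.0701). Hc, which encodes C5, rose as well, by 1.04 ± 0.24 (0.54 with a pseudocount of 4), on 29 and 11 reads in the control libraries. Its call was lost without control replicate 2 (0.66, adjusted p = 0.0659). It stayed below 5 scaled CPM in each group of this comparison and was chosen with its values in view. Those that fell were Masp1, a lectin pathway protease (33.1 ± 1.07 in YTcKO, 48.1 ± 3.44 in control; -0.53 ± 0.09), and the anaphylatoxin receptors C5ar1 (-0.84 ± 0.17) and C3ar1 (-0.32 ± 0.07).

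With H-151, 13 of the 22 rose and 2 fell against YTcKO, with a median of 0.80, against 19.4% called higher, 21.4% called lower and a median of 0.02 over all genes tested. The C5a receptor gene C5ar1 averaged 22.2 ± 4.89 in YTcKO+H151 and 6.53 ± 1.24 in YTcKO (1.61 ± 0.17, adjusted p = 7.71e-07). C3ar1, the C3a receptor gene, averaged 110 ± 2.14 and rose by 1.11 ± 0.07. Fcna, a ficolin, rose by 1.47 ± 0.23 (0.85 with a pseudocount of 4) and Cd93, a C1q receptor-like protein, by 1.20 ± 0.14. Itgb2, the beta chain of complement receptors 3 and 4, rose by 1.26 ± 0.13. C1qa rose by 1.15 ± 0.12 and C1qb by 1.01 ± 0.09. C1qa, C1qb and C1qc are also 3 of the 13 macrophage markers above, and the part of macrophages in these rises was not tested. Of the 7 receptor genes 6 rose and 0 fell. Some endothelial markers rose with H-151 as well. Of the 6 in the table, 4 rose and 0 fell in YTcKO+H151 against YTcKO, and 1 rose and 4 fell in YTcKO against control. In YTcKO+H151 against control, 1 rose and 1 fell, whereas 6 of the 7 receptor genes rose. The endothelial sum was 19.1 to 21.4 scaled CPM in YTcKO+H151 and 11.7 to 12.5 in YTcKO, against 16.6 to 18.6 in control. Pecam1, which encodes an endothelial adhesion molecule, averaged 4.09 ± 0.217 in YTcKO+H151 and 0.302 ± 0.0658 in YTcKO, against 2.79 ± 0.0778 in control. It rested on 4 and 3 reads in the YTcKO libraries. Kdr averaged 4.81 ± 0.871 in YTcKO+H151 and 7.015 ± 0.317 in YTcKO, and that fall did not pass (adjusted p = 0.0625). Cd93 is also expressed by endothelial cells, and the part of these cells was not tested. The 2 that fell were Clu (-0.74 ± 0.12) and Csmd1 (-0.80 ± 0.17), a membrane regulator, named here after their values were seen.

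Cfd, which encodes factor D, the protease that starts the alternative pathway and a product of adipocytes, averaged 125 ± 51.8 in YTcKO+H151 and 43.96 ± 10.2 in YTcKO, against 45.4 ± 4.63 in control. It rose by 1.44 ± 0.19 against YTcKO (adjusted p = 1.80e-05) and by 1.38 ± 0.19 against control (adjusted p = 7.94e-05). All 5 adipocyte markers in the table, of which Cfd is 1, rose in both comparisons. The sum of the other 4 was 1066 to 1758 scaled CPM in YTcKO+H151 and 421 to 517 in YTcKO, against 352 to 480 in control. Fabp4, at 1496 and 858 in the YTcKO+H151 libraries, carried most of this sum, and the sum's part in the change of Cfd was not tested.

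Against control, 13 of the 22 were higher with H-151 and 2 lower, with a median of 0.78, against 11.5% called higher, 11.4% called lower and a median of 0.00 over all genes tested. Fcna (1.61 ± 0.23; 0.92 with a pseudocount of 4), C1qa (1.45 ± 0.12), C1qc (1.44 ± 0.16), C1qb (1.26 ± 0.09) and Itgb2 (1.21 ± 0.13) were higher. Csmd1 averaged 4.32 ± 0.631 in YTcKO+H151 and 10.2 ± 0.643 in control (-1.08 ± 0.17, adjusted p = 0.000172). The other gene that was lower was Masp1, named after its value was seen (-0.29 ± 0.09, adjusted p = 0.0330). That call was lost under 8 of 18 alternatives: without control replicate 1 (adjusted p = 0.249) or 2 (0.0554), without YTcKO replicate 1 (0.0580) or 2 (0.0588), without YTcKO+H151 replicate 2 (0.137), with only those groups fitted (0.0541), without the trend (0.0961) and in DESeq2 (0.0868).

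**Figure D4:**
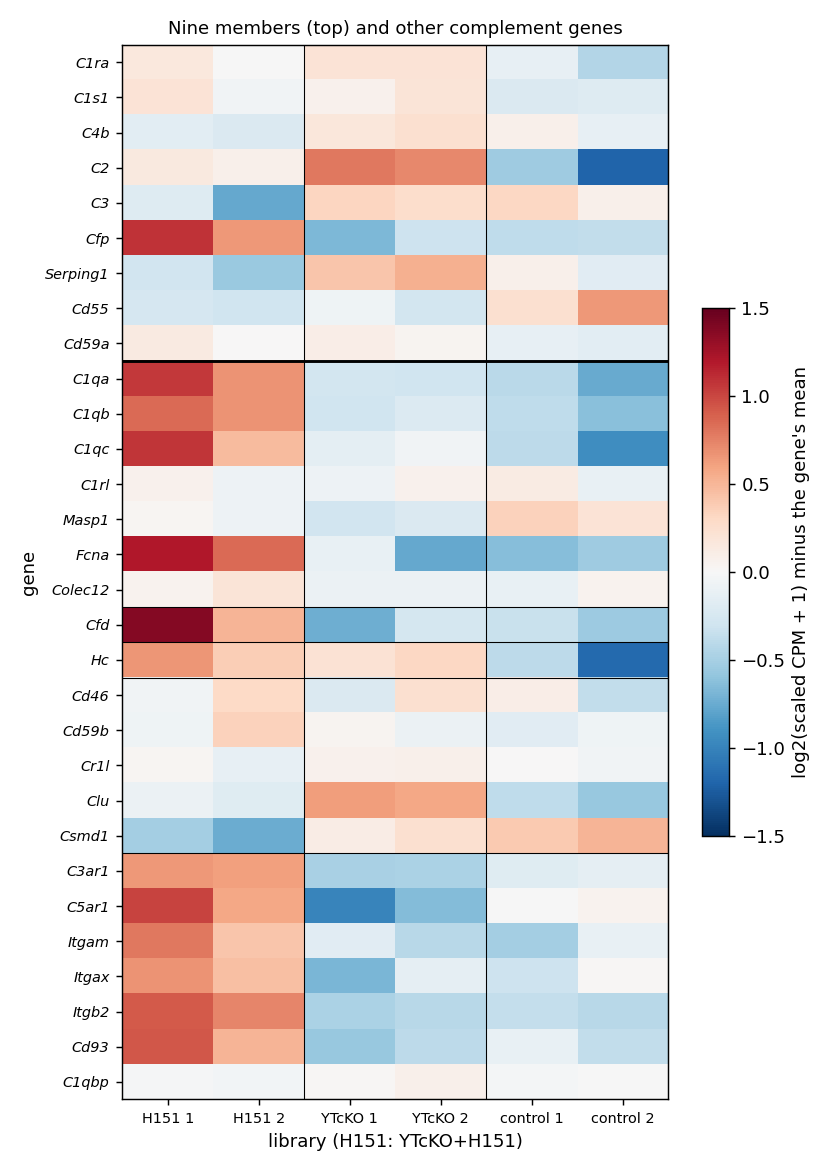
Log2(scaled CPM + 1) minus the gene's mean over the 6 libraries, for the 9 complement genes above the thick line and 21 other complement genes below it, with thin lines between initiation, amplification, terminal, regulator and receptor genes. Most receptor and C1q genes and Cfp are red in the YTcKO+H151 libraries, while C2, Serping1 and Clu are red in the YTcKO libraries.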

How the data were processed

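QuantSeq libraries of dermal fibroblasts numbered 6 (3 groups of 2, mapped by sample title). The submitters' processing notes list STAR 2.5.3a, featureCounts, edgeR and build mm10, with no annotation or low-value filter given in the sources used here. The values deposited by the authors are a scaled signal, CPM on effective library sizes: within every column 100.0% of values were whole multiples of 1 step (tolerance 0.0006) and columns summed to different totals, so whole reads were recovered. The planned test for plain CPM was kept.

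A gene was tested when 2 libraries or more had 1 scaled CPM or more (13648 of 13706) with limma 3.58.1 (R 4.3.3) on log2(scaled CPM + 1), which understates changes of low genes. All groups were fitted together, with a variance trend and Benjamini-Hochberg adjustment over all genes tested (threshold 0.05; 3 residual degrees of freedom, 15.7 after moderation). The fit was run on simulated data as a check of the code only, which does not bear on the calls reported here.

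The 9 genes and all lists were chosen with earlier results of these data known. Named other complement genes pass the threshold with at least 5 scaled CPM in the higher group, at most 8 per comparison by size; for C3, the 3 nearest profiles, without unnamed gene models. The settings varied were the pseudocount (0.25 or 4), the filter (none, or a mean of 10), median, total-count and quantile scaling, only the groups compared, no variance trend, a replicate term, each library left out, and edgeR 4.0.16 and DESeq2 1.42.0 on the recovered reads. The edgeR test called 2423 genes higher and 1851 lower in YTcKO against control, 2614 and 2899 in YTcKO+H151 against YTcKO, and 1626 and 1585 in YTcKO+H151 against control. Protein sequences were not used here, and the values of 1 other complement gene, included in the counts, are not reported here.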

Additional observations from a re-analysis of the deposited data

How the results depend on the processing

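Over 27 results of the 9 genes (3 comparisons each) and 18 alternatives, 427 outcomes kept direction and side of the threshold, 35 lost a call, 4 gained it and 17 changed sign, none of them in a called result; the causes were not tested beyond what each setting changes. Sign changes in YTcKO against control were C3 at -0.065 under total-count scaling, -0.058 under quantile normalization and -0.019 to 0.21 with 1 library left out (lowest without control replicate 2), and Cfp at -0.30 to 0.057 (highest without YTcKO replicate 1). Those in YTcKO+H151 against YTcKO were, under total-count scaling, C1s1 0.12, C1ra 0.042, Cd55 0.035 and Cd59a 0.18, and under quantile normalization C1s1 0.14, C1ra 0.0019 and Cd59a 0.14. With 1 library left out, the same comparison gave C1s1 -0.18 to 0.078 (above 0 without YTcKO replicate 2 or YTcKO+H151 replicate 2), Cd55 -0.22 to 0.00098 (above 0 without YTcKO replicate 1) and Cd59a -0.064 to 0.063 (above 0 without YTcKO replicate 1 or YTcKO+H151 replicate 2). Cd59a was 0.00064 in edgeR. Cd55 gave no value with the filter on a mean of 10.

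In YTcKO against control, 5 of the 9 genes were higher and this became 3 under total-count scaling, quantile normalization and no variance trend, and 3 to 6 with 1 library left out. The count lower, 1, became 0 with a filter on a mean of 10, which removes Cd55, 0 in DESeq2 and 0 to 1 with 1 library left out. Of other complement genes, 4 higher became 2 with that filter and in DESeq2 and 1 to 6 with 1 library left out (lowest without control replicate 2), and 3 lower became 5 under total-count scaling. Against control, with H-151, 4 of the 9 higher became 2 without the variance trend and 2 to 5 with 1 library left out, and 3 lower became 1 without the trend. Of other complement genes, 2 lower became 1 with the filter, with only 2 groups fitted, without the trend, in DESeq2 and 1 to 2 with 1 library left out; in YTcKO+H151 against YTcKO, 2 lower became 1 with the filter.

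Over all genes, 1938 lower in YTcKO against control became 1266 with the filter, 4054 under total-count scaling, 2987 under quantile normalization, 1217 in DESeq2 and 1165 to 2186 with 1 library left out. In YTcKO+H151 against YTcKO, 2643 higher became 1676 with the filter and 4768 under total-count scaling, and 2923 lower became 1930 under total-count scaling. Against control, with H-151, 1570 higher became 951 to 1373 with 1 library left out, and 1562 lower became 937 without the trend and 924 to 1499 with 1 library left out.

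Same-numbered libraries deviated from their group means with correlations of -0.13 (YTcKO+H151 and YTcKO), 0.15 (YTcKO+H151 and control) and -0.07 (YTcKO and control). Whether the numbers pair the samples is not stated in the labels, and such weak correlations cannot settle it. A replicate block gave 4 of the 9 genes higher and 1 lower in YTcKO against control (without C4b, adjusted p = 0.0514), 1 and 4 in YTcKO+H151 against YTcKO, and 4 and 3 in YTcKO+H151 against control. With YTcKO numbers crossed, chosen after seeing the data, YTcKO+H151 against YTcKO gave 1 higher and 4 lower, and 3055 and 3314 of all genes.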
